A study of Mus musculus with 8 samples.

Results

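The respiratory chain moves electrons from NADH and succinate through 4 membrane complexes of the mitochondrion to oxygen, and the ATP synthase, counted as complex V, uses the proton gradient that results to make ATP. The nuclear-encoded subunits of all 5 complexes, with cytochrome c, were taken from every probe set of the array whose single gene symbol begins with Nduf (followed by a, b, c, s or v and a number), Uqcr, Cox4 to Cox8 or Atp5, or is Sdha, Sdhb, Sdhc, Sdhd, Cyc1 or Cycs. The brightest probe set stood for each gene, and it had to be called Present on at least 2 of the 8 arrays. This gave 75 members, among the 7578 genes with any probe set of a single symbol Present on at least 2 arrays. They were 33 of complex I, 4 of complex II, 9 of complex III, 11 of complex IV, 17 of the ATP synthase and cytochrome c (Cycs). Of the 75, 71 were Present on all 8 arrays.

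The samples were dendritic cells grown from mouse bone marrow with GM-CSF and profiled on 8 MOE430A arrays, 1 for each combination of genotype and treatment. The mice were 9-week-old males, either VDRmut, whose vitamin D receptor has lost its DNA-binding domain, or VDRwt controls. On day 7 of differentiation the cells of each genotype received VD3+TNFa, TNFa, VD3 or nothing (untreated), where VD3 is the hormonal form of vitamin D at 1e-06 M, added 30 min before the cytokine, and TNFa is the inflammatory cytokine at 50 ng/ml for 4 h. With 1 array per condition, each comparison of treatments set 2 arrays against 2, the genotypes standing in for replicates, and no label names a separate culture or animal for each array. The p-values therefore reflect array-to-array spread, part of which may be technical. That spread also includes any difference between the genotypes in their response to a treatment. Changes are log2 differences with limma's standard error, and a change was called at a Benjamini-Hochberg adjusted p under 0.05 over 12832 probe sets.

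Complex I oxidises NADH, complex II (succinate dehydrogenase) also belongs to the tricarboxylic acid cycle, complex III passes electrons to the soluble carrier cytochrome c, and complex IV (cytochrome c oxidase) reduces oxygen. As background, activated dendritic cells are known to lean on glycolysis, and the nuclear genes for these subunits are known targets of the factors NRF1 and GABP, of which GABP is an ETS family protein. The 250 bases before the gene start are shown, 5′ to 3′ on the gene's strand, for 5 members that the results turn on, credited to RefSeq on GRCm38.p6. They are the members lower under TNFa whose promoter holds a match to an NRF1 or ETS motif, 5 of the 9 such members with a promoter in the table. They were picked for the match, which 23 of all 62 members with a promoter had, and no match was found for Ndufv3, Atp5g1, Ndufc1 and Ndufs8. Capitals mark the match, to GCGCNTGCG for the core of NRF1 sites or to CCGGAAG for ETS, searched on both strands.
Ndufa5 (chr6:24527691-24527940, minus strand, NRF1 match starting 25 bases before the gene start): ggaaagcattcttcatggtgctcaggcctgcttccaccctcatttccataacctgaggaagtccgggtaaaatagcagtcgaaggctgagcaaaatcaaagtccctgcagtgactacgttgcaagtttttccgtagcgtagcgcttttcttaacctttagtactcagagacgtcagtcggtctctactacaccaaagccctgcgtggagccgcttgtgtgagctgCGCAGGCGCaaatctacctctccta
Ndufa12 (chr10:94198785-94199034, plus strand, NRF1 match starting 120 bases before): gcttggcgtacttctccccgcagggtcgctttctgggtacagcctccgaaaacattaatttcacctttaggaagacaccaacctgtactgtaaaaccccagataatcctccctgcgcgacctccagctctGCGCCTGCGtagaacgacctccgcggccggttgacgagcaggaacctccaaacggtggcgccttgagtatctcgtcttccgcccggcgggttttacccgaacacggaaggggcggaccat
Ndufb6 (chr4:40279422-40279671, minus strand, ETS match starting 232 bases before): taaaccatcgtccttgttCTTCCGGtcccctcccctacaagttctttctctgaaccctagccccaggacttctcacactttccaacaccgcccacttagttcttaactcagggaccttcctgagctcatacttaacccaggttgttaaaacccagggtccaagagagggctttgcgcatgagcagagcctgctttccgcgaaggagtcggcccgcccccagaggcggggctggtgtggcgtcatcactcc
Atp5j (chr16:84834977-84835226, minus strand, 1 of 2 promoters of the gene, ETS match starting 61 bases before; the other promoter, not shown, has no match): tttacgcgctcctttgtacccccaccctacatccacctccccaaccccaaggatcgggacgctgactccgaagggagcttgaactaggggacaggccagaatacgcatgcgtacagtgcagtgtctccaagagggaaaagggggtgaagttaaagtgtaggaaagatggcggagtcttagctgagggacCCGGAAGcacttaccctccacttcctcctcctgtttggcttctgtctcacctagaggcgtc
Cycs (chr6:50566570-50566819, minus strand, NRF1 match starting 61 bases before): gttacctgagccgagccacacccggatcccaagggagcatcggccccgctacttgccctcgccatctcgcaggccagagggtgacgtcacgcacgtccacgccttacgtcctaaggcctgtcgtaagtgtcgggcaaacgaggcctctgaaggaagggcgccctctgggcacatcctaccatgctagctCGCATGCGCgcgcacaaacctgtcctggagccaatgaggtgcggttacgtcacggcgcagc
A promoter was in the table for 62 of the 75 members, 67 promoters in all because some genes have several starts. The NRF1 motif occurred in 16 of these 67 (23.9%), against 1706 of all 32851 promoters (5.19%). Overlapping promoters of Ndufa5 share the same match, and by gene 15 of the 62 members held it. The ETS motif occurred in 12 of 67 (17.9%), against 2269 of 32851 (6.91%), and Sdhd, Cox6a1, Atp5h and Atp5l held both. These are matches of letters in a window, and no binding was measured. Matches also occurred in members whose log2 change with TNFa alone lay above 0. These were Uqcrh (0.64), Atp5l (0.47), Atp5h (0.25), Atp5md (0.06), Sdha (0.03) and Atp5g2 (0.01), and the other members with a match lay below 0. Whether a match goes with the change was not tested.

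Vdr, the gene altered in VDRmut mice, had signals of 43.7, 6.3, 67.2 and 12.4 on the VDRmut arrays with VD3+TNFa, TNFa, VD3 and no treatment, and 104, 33.2, 185.7 and 93.7 on the matching VDRwt arrays. It was lower in VDRmut within each treatment and was called Absent on 3 of the 4 VDRmut arrays and on VDRwt TNFa, but the position of its probes relative to the deletion is not given in the sources used here. Of 17 dendritic cell markers on the array, 14 to 17 were Present on each array, among them Itgax and Cd83. The 4 untreated and VD3 arrays and both VD3+TNFa arrays had an 18S 5′ control signal of 3.5 to 224, while both arrays of TNFa alone stood apart at 6847 (VDRmut) and 9028 (VDRwt). The actin control's 5′ to 3′ signal ratio was 0.449 on the VDRmut VD3+TNFa array and 0.444 on the VDRmut untreated array, against 0.781 to 0.889 on the other 6. In VDRwt both arrays with TNFa were scanned on another day than both without, and the VDRwt VD3+TNFa array alone had another fluidics protocol than the other 3. For VDRmut neither is recorded. The part of these array differences in the results below was not tested.

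Of the 8 arrays, the VDRmut untreated array stood highest for most members. Relative to each gene's own mean over the arrays, the median member lay at -0.11 on the VDRmut VD3+TNFa array, -0.14 on VDRmut TNFa, 0.05 on VDRmut VD3 and 0.48 on VDRmut untreated, in log2 units. The VDRwt medians were -0.06 with VD3+TNFa, -0.29 with TNFa, -0.04 with VD3 and 0.09 untreated. Over all 12832 probe sets the same medians ran only between -0.02 and 0.08. The VDRmut untreated array gave the highest signal of the 8 for 51 of the 75 members (68%), against 14.4% of all probe sets, and it is also 1 of the arrays with the low actin ratio. The VDRwt TNFa array gave the lowest signal for 24 members (32%), against 16.3% of all probe sets.

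**Figure D1:**
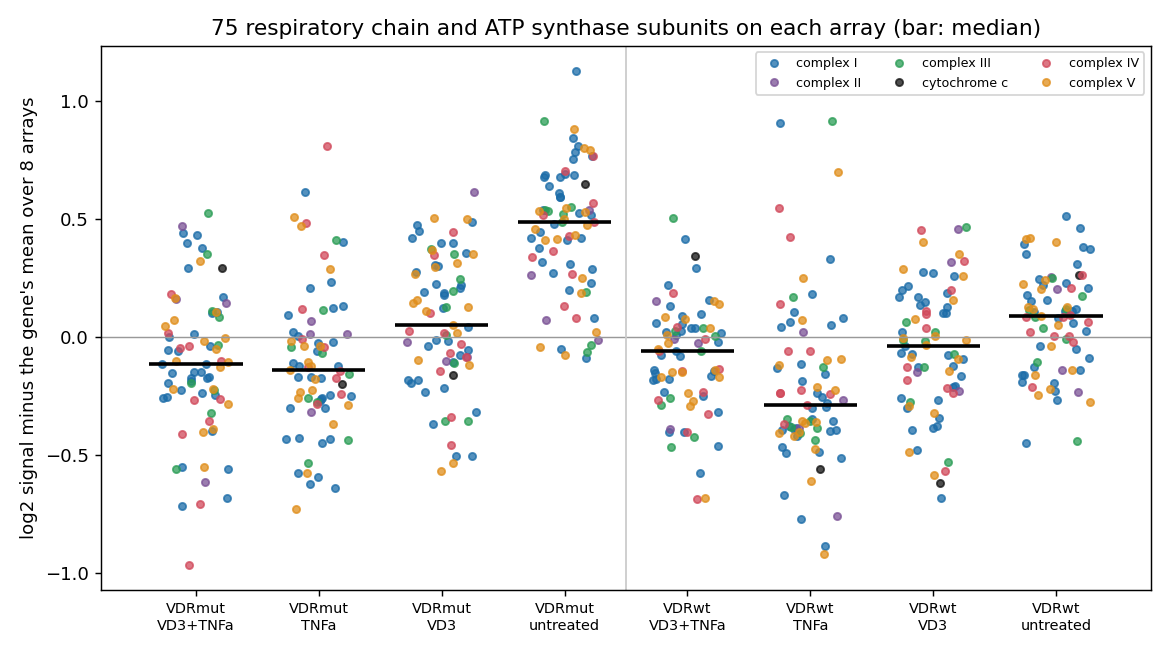
Each point is 1 of the 75 members on 1 array, as its log2 signal minus its own mean over the 8 arrays, coloured by complex, with a bar at the median of all members. The median is highest on the VDRmut untreated array (0.48) and lowest on the VDRwt TNFa array (-0.29).

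TNFa alone was accompanied by lower signals through most of the chain. Of the 75 members, 65 had a log2 change below 0 with TNFa against untreated, 58 of them in both genotypes, and the median change was -0.47, against 0.04 for all probe sets. The test called 10 members lower (13.3%) and 0 higher, where 5.39% of all probe sets were called lower and 5.66% higher. In either direction the members' 13.3% is close to the 11.1% of all probe sets. At an unadjusted p under 0.05, 30 were lower and 1 was higher. Both TNFa arrays lay below both untreated arrays for 47 members (62.7%) and above them for 3 (4%), against 26.2% and 28.8% of all probe sets. In bulk samples, fewer cells of a type and less RNA per cell cannot be told apart.

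By complex, the median log2 change with TNFa alone was -0.47 for complex I, -0.30 for II, -0.50 for III, -0.42 for IV and -0.46 for V, so the complexes lay close together. It was more negative in VDRmut cells (-0.57 over all members) than in VDRwt cells (-0.28), a difference that was not tested. The called members were 7 of 33 in complex I, 2 of 17 in the ATP synthase, and cytochrome c. Complexes II, III and IV had 0 on the probe sets used, but a second Cox5a probe set, of complex IV, was called lower. Whether complexes differ in this was not tested.

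In complex I the lowest change was that of Ndufv3, an accessory subunit of the NADH-binding module. Its signal was 1302 (VDRmut) and 1099 (VDRwt) with TNFa, against 2759 and 2793 untreated. Both TNFa arrays lay far below all 6 others, the next of which, VDRmut VD3+TNFa, was at 1798. The change was -1.21 ± 0.21 (adjusted p = 0.00947), a 2.32-fold lower signal, and it is the gene's only probe set.

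Ndufa5, an accessory subunit next to the ubiquinone-binding module and the gene whose promoter holds the NRF1 match above, had 157 and 167 with TNFa in VDRmut and VDRwt cells, against 382 and 307 untreated. The change was -1.08 ± 0.23 (adjusted p = 0.0187), and with VD3+TNFa the signals were also low, at 213 and 179. A second Ndufa5 probe set, about as bright, gave -0.80 with TNFa alone and was not called (adjusted p = 0.0888). With VD3 present that probe set gave -0.07 for TNFa, against -0.58 for the one used. Ndufc1, a small membrane-arm subunit, had 517 and 415 with TNFa, against 1272 and 742 untreated (-1.07 ± 0.25, adjusted p = 0.0283). Its untreated signals differed between genotypes more than its TNFa signals did, and the VD3+TNFa arrays, at 355 and 391, were lower still. The second Ndufc1 probe set, about as bright, gave -0.70 with TNFa alone and was not called (adjusted p = 0.144). With VD3 present it gave 0.31 for TNFa, against -0.88 for the probe set used.

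Ndufa12, an accessory subunit with an NRF1 match in its promoter, had 444 and 416 with TNFa in VDRmut and VDRwt cells, against 997 and 737 untreated (-1.0 ± 0.21, adjusted p = 0.0164). Ndufb6, whose promoter holds an ETS match, had 504 and 492, against 978 and 884 (-0.90 ± 0.20, adjusted p = 0.0247). Ndufb9, like Ndufb6 a subunit of the membrane arm, had 989 and 964, against 1905 and 1687 (-0.88 ± 0.22, adjusted p = 0.0341). On both VD3+TNFa arrays Ndufb9, at 803 and 896, was lower still, whereas Ndufa12, at 710 and 671, and Ndufb6, at 603 and 684, lay above their TNFa arrays. Second probe sets gave -0.53 for Ndufb9 and -0.82 for Ndufb6 with TNFa alone. Neither was called (adjusted p = 0.142 and 0.0584). With VD3 present the second Ndufb9 probe set gave -0.03 for TNFa, against -0.64 for the one used. Ndufs8, which carries iron-sulfur clusters and was the only called member of the 6 conserved core subunits measured, had 468 and 494, against 1012 and 741 (-0.85 ± 0.22, adjusted p = 0.0380). All 6 core subunits had a change below 0, with a median of -0.49.

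With TNFa alone, genes with several probe sets mostly gave the same direction. Of the 42 such members, 36 had 1 direction in all their kept probe sets. Of the 137 kept probe sets of members, 17 were called lower and 0 higher. This agreement was not counted for TNFa in the presence of VD3. The 6 probe sets of Ndufs8 lay between -0.96 and -0.42. The 3 bright ones of Ndufa12 lay between -1.21 and -0.96, and the remaining, dim one was at 0.54.

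At the other end of complex I were Ndufa4 and Ndufa6. Ndufa4, which carries a complex I name but has since been assigned to cytochrome c oxidase, had 483 (VDRmut) and 593 (VDRwt) with TNFa, against 370 and 232 untreated. Both TNFa arrays were the highest of the 8, and the change of 0.87 ± 0.27 did not pass (adjusted p = 0.0735). Ndufa6 differed by 0.22 and also did not pass.

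Complex II had no called member. Sdhd, a membrane anchor, had 710 and 522 with TNFa in VDRmut and VDRwt cells, against 929 and 1053 untreated, a change of -0.70 ± 0.26 (adjusted p = 0.118). Sdhb, the iron-sulfur subunit, had 1331 and 1011, against 1913 and 1198 (-0.38 ± 0.22, adjusted p = 0.312). Here the groups overlapped, since the VDRmut TNFa array lay above the VDRwt untreated array. Sdha, the flavoprotein, differed by 0.03 and Sdhc, the other anchor, by -0.22.

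In complex III the lowest changes were those of the small subunits Uqcr10 and Uqcr11. Uqcr10 had 418 and 477 with TNFa in VDRmut and VDRwt cells, against 1143 and 642 untreated, so the VDRmut pair differed far more, and its change of -0.94 ± 0.29 did not pass (adjusted p = 0.0749). Uqcr11 had 403 and 380, against 714 and 578 (-0.72 ± 0.22, adjusted p = 0.0671). Uqcrh, the hinge protein, ran the other way at 1376 and 1949, against 1451 and 763 (0.64 ± 0.30, adjusted p = 0.222). Its higher value came from the VDRwt pair, at 1.35, with -0.08 in VDRmut. Uqcrfs1, the Rieske protein, was the next highest at -0.04.

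In complex IV 9 of 11 members lay below 0 and none was called. The lowest were Cox7a2 (-0.54 ± 0.24, adjusted p = 0.192) and Cox4i1 (-0.53 ± 0.20, adjusted p = 0.121). Cox4i1 encodes the common form of subunit 4 and had 2579 and 2473 with TNFa in VDRmut and VDRwt cells, against 4308 and 3107 untreated. Cox7c (0.60 ± 0.41) and Cox7a2l, known for a part in joining complexes (0.39 ± 0.22), lay above 0 and did not pass. The Cox7c probe set was dim, at 20.4 to 58.2 and Present on 5 arrays.

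Isoforms of complex IV known from muscle, heart or testis were near or below detection. Cox6a2, Cox8b and Cox8c were Present on 0 of 8 arrays, with signals of 46.8 to 118.9, 4.3 to 33 and 184.6 to 264.1, and Cox6b2 and Cox7a1 were Present on 1, at 19.3 to 67.2 and 1.4 to 47.5. These 5 genes failed the filter and were not tested. Cox4i2, known as the form of subunit 4 in lung and under low oxygen, was Present on 7 arrays at 51.4 to 103.7 and differed by -0.11 with TNFa alone.

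In the ATP synthase, Atp5g1 had the smallest adjusted p of all members. It is 1 of 3 genes for the c subunit, whose copies form the rotor ring. Its signal was 432 (VDRmut) and 379 (VDRwt) with TNFa, against 953 and 823 untreated, and between 753 and 913 on the other 4 arrays. The TNFa arrays stood alone at the bottom, with a change of -1.13 ± 0.20 (adjusted p = 0.00864) that was almost equal in both genotypes, -1.14 in VDRmut and -1.12 in VDRwt. The other c subunit genes, Atp5g3 at -0.72 and Atp5g2 at 0.01, did not pass.

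Atp5j, coupling factor 6 of the stator stalk, for which 1 of 2 promoters holds an ETS match, had 963 and 1034 with TNFa in VDRmut and VDRwt cells, against 1974 and 1914 untreated (-0.96 ± 0.19, adjusted p = 0.0141). Its signals with VD3+TNFa, 1233 and 1172, lay between the TNFa and the untreated ones. Atp5b, the catalytic beta subunit, had 1968 and 1683, against 2157 and 2427 (-0.33 ± 0.20, adjusted p = 0.340), and all 5 subunits of the catalytic F1 part lay below 0 with 0 called. Atp5l (0.47 ± 0.29) and Atp5h (0.25 ± 0.21), subunits g and d, had the highest changes and did not pass.

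Cycs carries electrons between complexes III and IV and is also known for its release in apoptosis, and its promoter holds an NRF1 match. It had 1328 and 1036 with TNFa in VDRmut and VDRwt cells, against 2394 and 1830 untreated. Both TNFa arrays lay below both untreated ones. The change was -0.84 ± 0.21 (adjusted p = 0.0356). Its other 2 probe sets gave -0.62 and -0.06 and were not called.

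A block for scan day marks only the VDRwt arrays with TNFa, since no day is recorded for VDRmut. Such a block does not separate scan day from TNFa. The count of 10 depended on the arrays and on the model. It was 0 without the VDRwt TNFa array, 2 without VDRmut TNFa, 4 without VDRmut untreated and 6 without VDRmut VD3, VDRmut VD3+TNFa or VDRwt VD3, and 1 with scan day as a block, while dropping arrays in turn kept the median within -0.63 and -0.31.

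**Figure D2:**
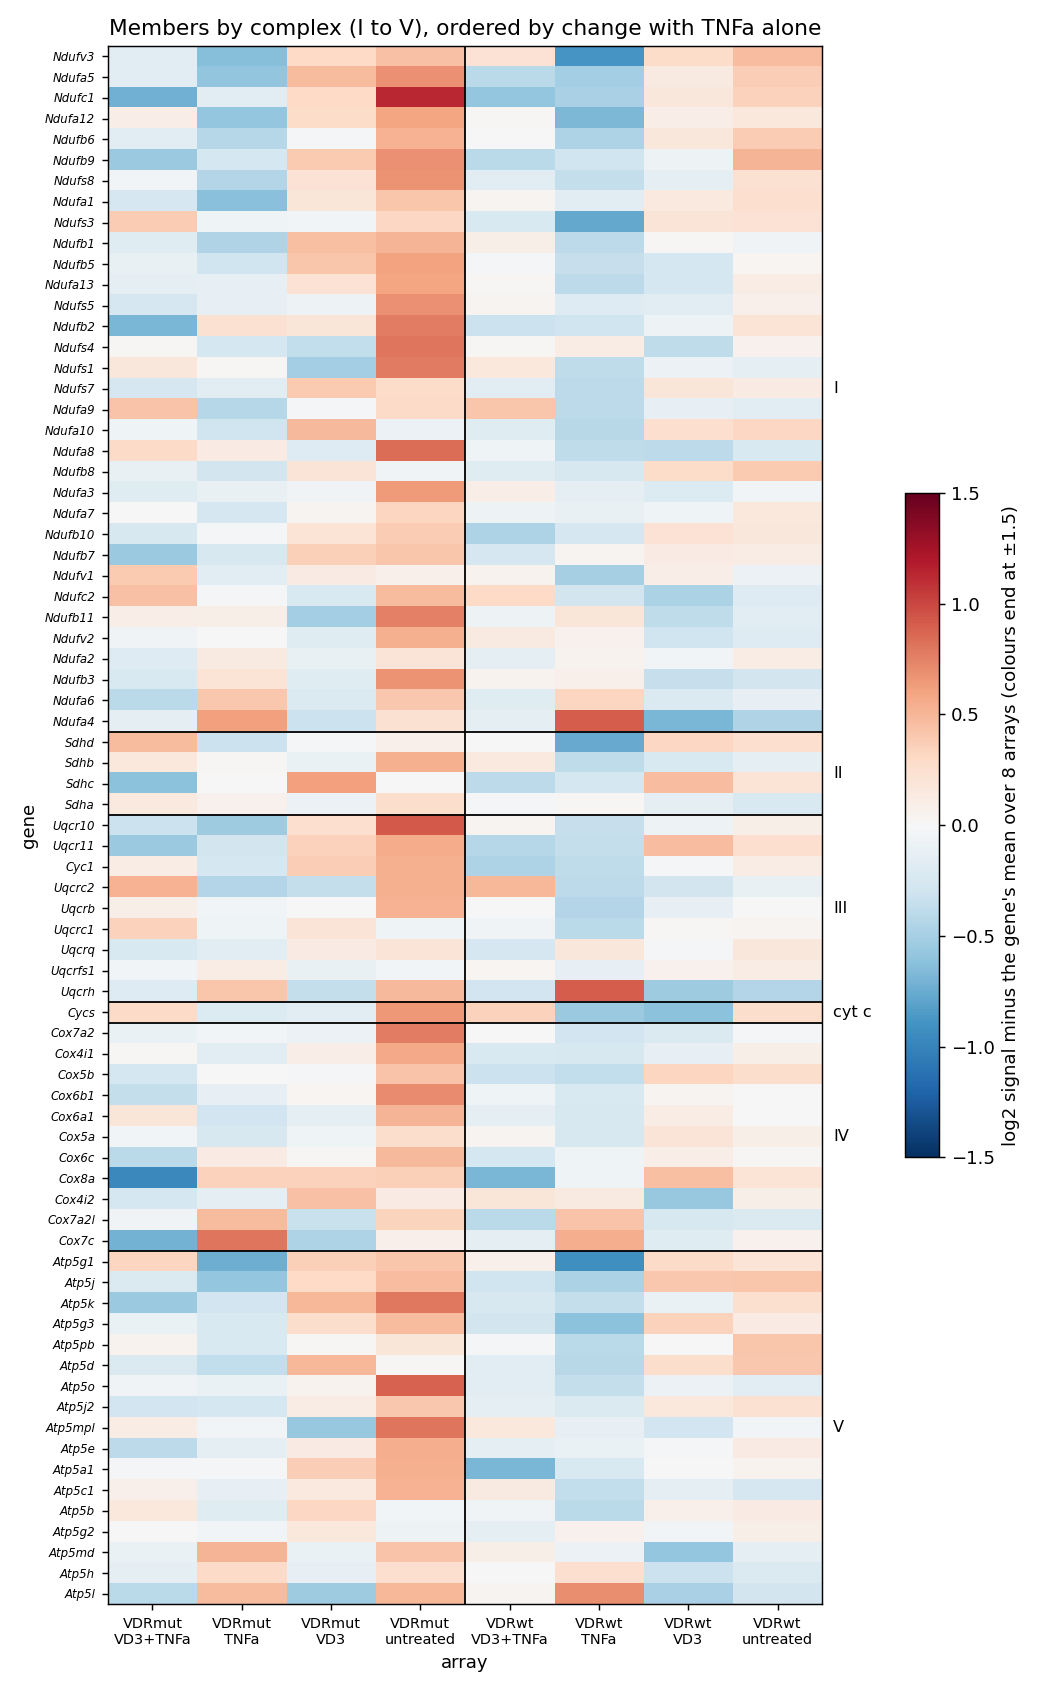
Each row is 1 of the 75 members, grouped by complex and ordered by its change with TNFa alone, and each column 1 array; colour is the log2 signal minus the gene's mean over the 8 arrays. The VDRmut untreated column is mostly red and both TNFa columns are mostly blue, with Ndufa4, Uqcrh, Cox7c and Atp5l among the exceptions.

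Neutrophil markers moved with the same arrays. Of 10 tested, 7 were called lower with TNFa alone (median -1.46), and the summed signal of the 11 on the array was 13281 (VDRmut) and 3635 (VDRwt) with TNFa, against 31831 and 10569 untreated. It was 20370 and 10547 with VD3+TNFa and 27526 and 9729 with VD3. Between 6 and 10 of these 11 were Present on each array, S100a8 and S100a9 on all 8 and Elane on none, and none was listed at 0. Dendritic cell markers went the other way, with 7 of 17 called higher, and Itgax called lower. Their summed signal was 57470 (VDRmut) and 56550 (VDRwt) with TNFa, against 40090 and 40549 untreated. Of 9 macrophage markers tested, 4 were called lower. The part of these markers in the members' change was not tested.

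With TNFa alone, calls in the other mitochondrial gene lists were few and mostly lower. Over all probe sets, 5.39% were called lower and 5.66% higher. Of 71 genes of the mitochondrial ribosome, 6 were called lower and 0 higher with TNFa alone (median -0.26), with Mrpl52 at -1.03 ± 0.21 (adjusted p = 0.0157), Mrpl2 at -0.97, Mrps26 at -0.88 and Mrps14 at -0.87. Of 18 genes of the tricarboxylic acid cycle and its entry step, 2 were called lower and the median was -0.52. These were Idh3a, an isocitrate dehydrogenase subunit (-1.02 ± 0.26, adjusted p = 0.0403), and Pdk1, a kinase that inhibits pyruvate dehydrogenase and so is no cycle enzyme. Pdk1 had 86.4 (VDRmut) and 57 (VDRwt) with TNFa, against 554 and 313 untreated (-2.57 ± 0.35, adjusted p = 0.00316).

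Of 26 assembly factors of the complexes, 1 was called lower, Uqcc2 of complex III (-1.13 ± 0.22, adjusted p = 0.0141), and the median was -0.01. Of 12 carriers and porins 1 was called, Slc25a5, an exchanger of ADP for ATP (-1.0 ± 0.22, adjusted p = 0.0203). Of 23 import genes 2 were called lower, Timm8a1 (-1.08) and Tomm40 (-1.0). Of 9 antioxidant genes, Cat, the mainly peroxisomal catalase, was called higher (1.23 ± 0.20, adjusted p = 0.00647) and Txn2, mitochondrial thioredoxin, lower (-0.97 ± 0.22, adjusted p = 0.0246). Of 17 regulators of mitochondrial gene expression, such as Nrf1, Gabpa and Tfam, none was called by limma and the median was -0.04.

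With VD3 present the TNFa changes of the members ran both ways. VD3+TNFa against VD3 gave a median of -0.10, with 44 members (58.7%) below 0, 36 of them in both genotypes. Over all probe sets the median was similar, -0.07, with 54.8% below 0. The test called 1 member lower (1.33%) and 0 higher, where 0.164% of all probe sets were called lower and 0.639% higher, so the members' share is near the 0.803% called in either direction. Both VD3+TNFa arrays lay below both VD3 arrays for 26 members (34.7%) and above them for 15 (20%), against 30.7% and 25.7% of all probe sets. The comparison shares no array with that of TNFa alone.

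The called member was Cox8a, the common form of a small complex IV subunit. Its signal was 788 (VDRmut) and 958 (VDRwt) with VD3+TNFa, against 1955 and 2110 with VD3, and 1959 and 1476 with TNFa alone. The VD3+TNFa arrays lay below all 6 others, with a change of -1.23 ± 0.22 (adjusted p = 0.0494). Its second probe set gave -0.86. Sdhc had 423 and 495, against 994 and 891 (-1.04 ± 0.22, adjusted p = 0.0616), and was the next lowest. The second Sdhc probe set gave only -0.17.

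The members with the highest changes were Uqcrc2, a core protein of complex III, and Ndufc2, of the membrane arm of complex I. Uqcrc2 had 1343 and 1321 with VD3+TNFa in VDRmut and VDRwt cells, against 728 and 770 with VD3 (0.83 ± 0.24, adjusted p = 0.0999). Ndufc2 differed by 0.72 (adjusted p = 0.103). The second probe sets of Uqcrc2 and Ndufc2 gave smaller changes, 0.27 and 0.08. Of the other lists, Tomm70a, an import receptor, was the only gene called (1.39 ± 0.25, adjusted p = 0.0494). The call of Cox8a was lost without any 1 of the VD3 and VD3+TNFa arrays or without VDRmut TNFa, and 5 members were called without either untreated array.

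Averaged over both VD3 states, TNFa went with 14 members called lower (18.7%) and 0 higher, where 6.17% of all probe sets were called lower, 6.86% higher and 13% in either direction. They were 6 of complex I (Ndufc1, Ndufa5, Ndufb9, Ndufv3, Ndufa12 and Ndufb6), 5 of the ATP synthase (Atp5j, Atp5k, Atp5g1, Atp5g3 and Atp5d), Uqcr11, Cox8a and Sdhc. The log2 changes ran between -0.98 for Ndufc1 and -0.53 for Ndufb6. With VD3 present, second probe sets gave 0.31 for Ndufc1 and 0.27 for Ndufb6, against -0.88 and -0.16 for those used. Those of Ndufa5 and Ndufb9 gave -0.07 and -0.03, against -0.58 and -0.64. Other bright Ndufa12 probe sets gave 0.54 and -0.26, against -0.13. The second Sdhc probe set gave -0.17, against -1.04. Second probe sets of Atp5d and Cox8a stayed low, at -0.87 and -0.86. Atp5j, at -0.78 ± 0.13, had the smallest adjusted p (0.00901), and Uqcr11 changed by -0.81 ± 0.15 (adjusted p = 0.0130). Atp5k, subunit e, had 986, 1184, 2046 and 2503 in VDRmut cells with VD3+TNFa, TNFa, VD3 and no treatment, and 1227, 1126, 1355 and 1709 in VDRwt cells. On this probe set both arrays with TNFa lay below both without it within each genotype. A nearly as bright Atp5k probe set gave -0.33 for TNFa without VD3 and 0.002 with VD3. A dimmer one gave -0.54 and -0.57. The highest member in this comparison was Ndufa4, at 0.61 ± 0.19, which did not pass (adjusted p = 0.0665). Called genes of the other lists ran both ways. Among them, Pmpcb (1.08), Cat (0.95) and Sod2 (0.75) were higher, and Pdk1 (-1.30), Txn2 (-0.89) and Mrpl4 (-0.89) lower. Under a model with 1 TNFa effect for both VD3 states, 0 members were called. Leaving out 1 array at a time gave 1 without VDRmut VD3+TNFa or VDRwt VD3, 3 without VDRmut VD3, and 5 without VDRwt TNFa or VDRwt VD3+TNFa.

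**Figure D3:**
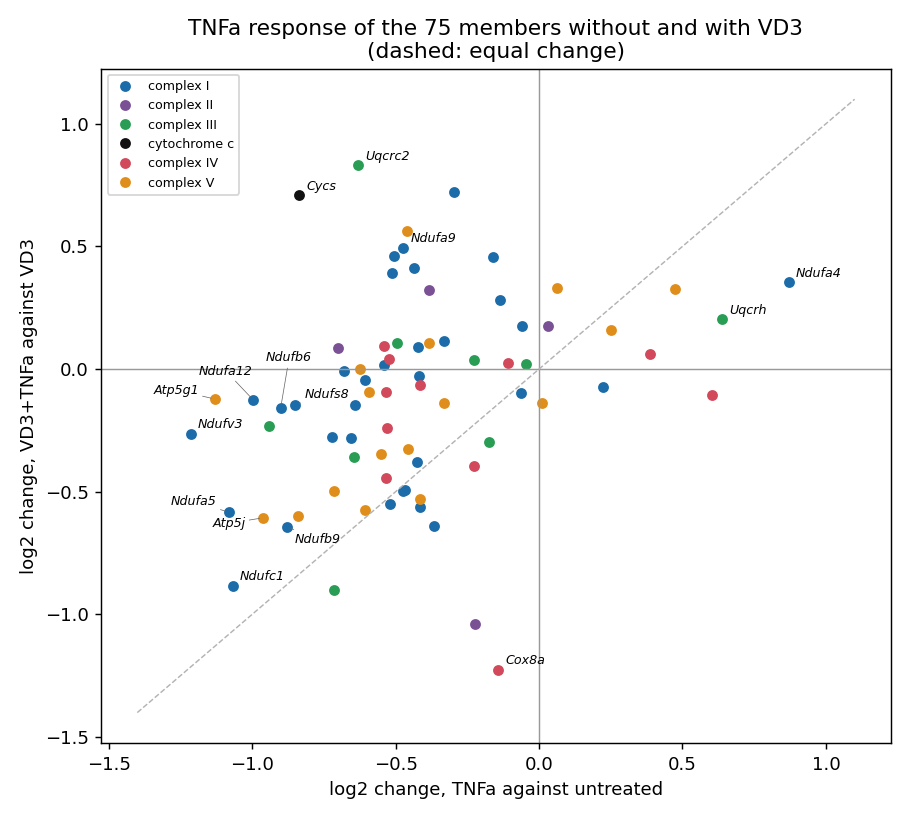
Each point is 1 of the 75 members, with the log2 change of TNFa against untreated on the horizontal axis and of VD3+TNFa against VD3 on the vertical axis, coloured by complex; the dashed line marks equal changes. Most points lie left of 0 and above the line, with Cycs at -0.84 and 0.71 and Cox8a at -0.14 and -1.23.

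The next comparison asked whether VD3 altered the TNFa change, as the difference between both TNFa responses. Its median over members was 0.29, against -0.08 over all probe sets, with 55 members above 0 and 45 of these in both genotypes. The test called 1 member positive (1.33%), Cycs, where 0.959% of all probe sets were called positive, 0.81% negative and 1.77% in either direction, a share much like that of the members.

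Cycs had 1867 (VDRmut) and 1939 (VDRwt) with VD3+TNFa, 1328 and 1036 with TNFa, 1365 and 995 with VD3, and 2394 and 1830 untreated. Both single treatments were thus below both the untreated and the combined arrays, and VD3+TNFa lay near the VDRwt untreated array. The difference was 1.54 ± 0.30 (adjusted p = 0.0420), at 1.30 in VDRmut and 1.78 in VDRwt. Its other 2 probe sets changed by 0.28 and 0.66 with TNFa in the presence of VD3, against -0.62 and -0.06 in its absence. The call held in 2 of 16 alternatives and was lost without any 1 of 7 arrays, VDRwt untreated being the exception.

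The next highest were Uqcrc2 (1.46 ± 0.33, adjusted p = 0.0644), Ndufc2 (1.02) and Atp5mpl, a small proteolipid of the ATP synthase (1.02). The lowest were Cox8a (-1.08 ± 0.32, adjusted p = 0.108) and Sdhc (-0.82). For TNFa with and without VD3, second probe sets gave 0.27 and -0.30 for Uqcrc2 and 0.08 and -0.11 for Ndufc2. They gave -0.86 and -0.22 for Cox8a, and -0.17 and -0.64 for Sdhc, which for Sdhc is the opposite order. Of the other lists only Pdk1 was called (2.54 ± 0.49, adjusted p = 0.0425), with 352 (VDRmut) and 434 (VDRwt) with VD3+TNFa, 86.4 and 57 with TNFa, 330 and 480 with VD3, and 554 and 313 untreated.

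VD3 alone, against untreated, gave 0 called members and 0 called probe sets of 12832 (0%) with limma. At an unadjusted p under 0.05 it gave 6 members, all lower, and 977 probe sets. The median was -0.24, at -0.35 in VDRmut and -0.11 in VDRwt, and 61 members (81.3%) lay below 0. Over all probe sets it was 0.04, with 45.4% below 0. Both VD3 arrays lay below both untreated ones for 28 members (37.3%) and above them for 2 (2.67%), against 16.4% and 20.1% of all probe sets. Cycs was the lowest (-0.85 ± 0.21, adjusted p = 0.629), then Atp5mpl and Ndufs4, both at -0.81, and Sdhc (0.44) and Ndufa10 (0.26) were the highest. Without the VDRmut untreated array the median was -0.08, and without VDRwt untreated it was -0.43.

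Between VD3+TNFa and TNFa, which differ in VD3, members ran both ways. The median was 0.11, and 3 members were called higher (4%) and 1 lower (1.33%), where 3.4% of all probe sets were called higher and 3.57% lower, so the members' share (5.33%) was no higher than the 6.97% called in all. Both VD3+TNFa arrays lay above both TNFa arrays for 30 members (40%) and below them for 19 (25.3%), against 27% and 29.5% of all probe sets. The median over all probe sets was -0.03. Atp5g1 was higher, with 894 (VDRmut) and 753 (VDRwt), against 432 and 379 with TNFa (1.02 ± 0.20, adjusted p = 0.0178). Uqcrc2 had 1343 and 1321, against 688 and 713 (0.93 ± 0.24, adjusted p = 0.0495). The third was Ndufa9, an accessory subunit near the ubiquinone site, with 988 and 978, against 544 and 558 (0.83 ± 0.21, adjusted p = 0.0493).

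In these 3 genes both VD3+TNFa arrays lay clear above both TNFa arrays. The lower member was Cox8a, with 788 and 958, against 1959 and 1476 (-0.97 ± 0.22, adjusted p = 0.0357). Cox7c was at -1.10 ± 0.41 and did not pass (adjusted p = 0.153). The count of 4 fell to 0 without any 1 of the 4 TNFa and VD3+TNFa arrays and to 1 without either VD3 array, was 7 without either untreated array, and was 0 without both low-actin VDRmut arrays.

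Markers of other cells moved in this comparison too. Of 10 neutrophil markers 6 were called higher with VD3+TNFa than with TNFa and 0 lower (median 1.08), with summed signals of 20370 (VDRmut) and 10547 (VDRwt), against 13281 and 3635. Of 9 macrophage markers 2 were called higher. Of 17 dendritic cell markers 1 was called higher and 5 lower, and 16 lay below 0, with summed signals of 41415 and 33851, against 57470 and 56550. The part of these markers in the members' change was not tested.

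In this comparison 3.4% of all probe sets were called higher and 3.57% lower. Among the other mitochondrial lists, 3 of 18 genes of the tricarboxylic acid cycle and its entry step were called higher with VD3+TNFa than with TNFa. They were Pdk1 (2.48 ± 0.35, adjusted p = 0.00626), Idh3a (1.15 ± 0.26, adjusted p = 0.0351) and Cs, citrate synthase (1.04 ± 0.24, adjusted p = 0.0335). Of 12 carriers and porins, Slc25a5 was called higher (0.99 ± 0.22, adjusted p = 0.0291), and Slc25a20, the carnitine and acylcarnitine carrier, lower (-1.10 ± 0.24, adjusted p = 0.0282). Of 9 antioxidant genes, Cat was called lower (-1.38 ± 0.20, adjusted p = 0.00674).

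**Figure D4:**
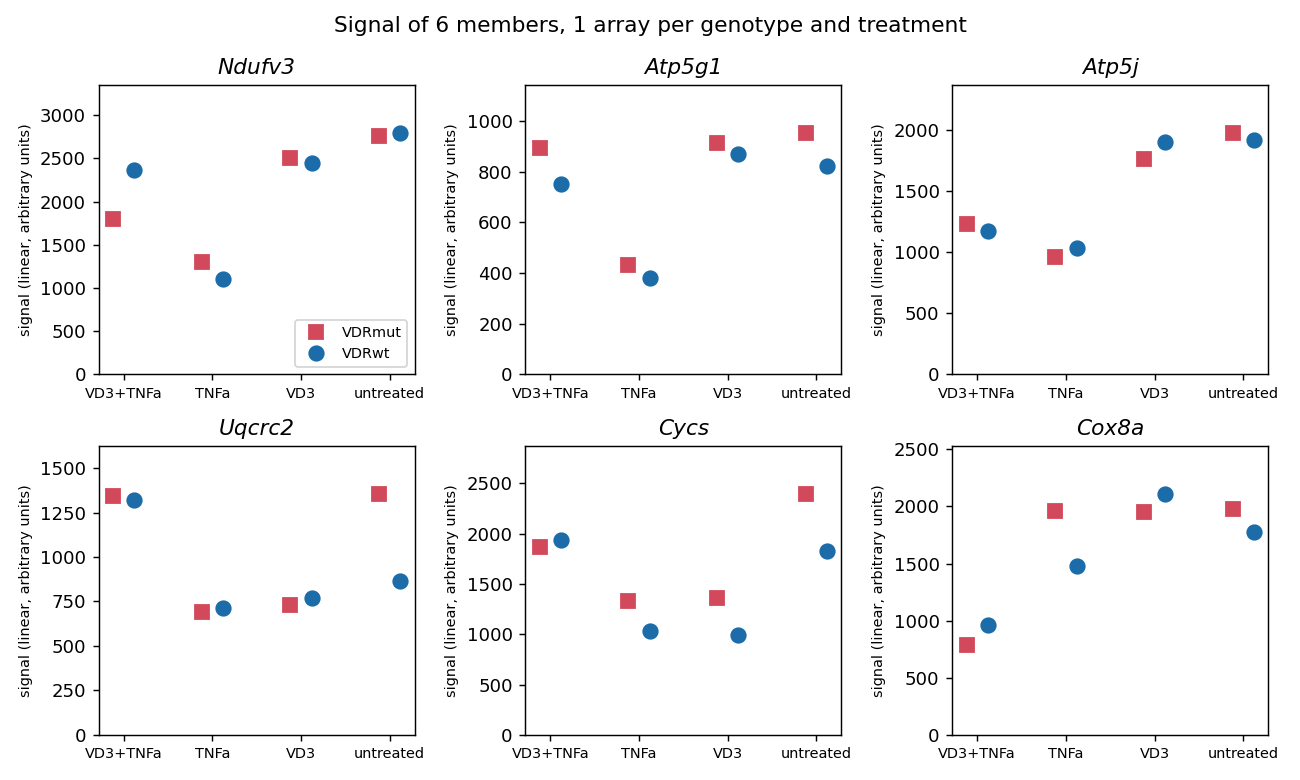
Signals (linear, arbitrary units, axes starting at 0) of 6 members, with VDRmut as squares and VDRwt as circles, 1 array per point. Ndufv3, Atp5g1 and Atp5j are low with TNFa alone, Uqcrc2 and Cycs are lower with TNFa or VD3 alone than with both, and Cox8a is low with VD3+TNFa.

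VDRmut against VDRwt gave 0 called members with limma, where 0.0623% of all probe sets (8) were called, 0.0546% higher and 0.00779% lower. Without adjustment 3 members had a p under 0.05, all higher. The median difference was 0.14, with 62 members above 0, and it was 0.07 without either untreated array. The highest were Ndufa8 (0.53 ± 0.17, adjusted p = 0.622) and Atp5a1, the alpha subunit of the ATP synthase (0.43 ± 0.14, adjusted p = 0.622), and the lowest were Cox7c and Ndufa1, both at -0.14. The higher values belonged mostly to the untreated pair: the median of VDRmut minus VDRwt was -0.05 with VD3+TNFa, 0.08 with TNFa, 0.13 with VD3 and 0.45 untreated. In the same comparison 6 of 10 neutrophil markers were called higher in VDRmut, and their part in the members' values was not tested.

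Ndufa8 shows this pattern. It had 986 with VD3+TNFa, 878 with TNFa, 703 with VD3 and 1446 untreated in VDRmut cells, against 773, 619, 613 and 687 in VDRwt cells. VDRmut was higher in each treatment, and most so untreated.

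The question whether VD3 acted differently in VDRmut and VDRwt cells, which the receptor's deletion raises, was tested as the difference between the VD3 effects averaged over TNFa. It gave 0 called members and 0 of 12832 probe sets (0%) with limma, and at an unadjusted p under 0.05 it gave 0 members and 140 probe sets. The median difference was -0.18. The lowest member was Ndufs1, the largest core subunit of complex I (-0.87 ± 0.53), then Atp5mpl (-0.62), and the highest were Cox4i2 (0.40) and Ndufa10 (0.31). Within VDRmut alone and within VDRwt alone VD3 likewise gave 0 called members and 0 called probe sets (0%), with medians of -0.16 and 0.02. This model, used for all 3 tests, assumes 1 TNFa effect with and without VD3. Any difference between the TNFa responses then enters its residual spread, and that difference had a median of 0.29 over members. With 1 array per condition and this assumption, these data do not show that VD3 acted alike in both.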

How the data were processed

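RNA of the 8 samples was hybridised to 1 MOE430A array each. Per the file headers, each deposited table lists 22690 probe sets with their intensity, on a linear scale, and a call of Present, Marginal or Absent. MAS5 is the tool in the submitters' processing notes, which give no version. The deposited intensities had a 2% trimmed mean of 200.1 on each array and between 46.5% and 51.5% of probe sets Present. The number of arrays, 1 per condition, limits the precision.

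Intensities were raised to at least 0.1 (3 values), scaled to a common trimmed mean and put on the log2 scale. The 64 control probe sets and those Present on fewer than 2 arrays were left out, leaving 12832. Genes came from the platform annotation: 20393 probe sets had 1 symbol, 691 several and 1606 none. The rule matched 151 probe sets of 80 genes. A further 7 with several symbols, naming Ndufs5, Ndufb4, Ndufa11, Ndufs6, Ndufa13 or Ndufb2 among others, were not used.

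Linear models with genotype and treatment (3 residual degrees of freedom) were fitted in limma 3.58.1 (R 4.3.3; lmFit, eBayes with a trend), and 8 contrasts were tested with Benjamini-Hochberg adjustment. VD3 by genotype came from a model with genotype, TNFa and VD3 within genotype. The fits were tested on simulated data. Members named with values are those called in any contrast, the 2 highest and 2 lowest per complex for TNFa alone, the 2 extremes each way elsewhere, the genes that failed the filter, isoforms of restricted tissues, Cycs, Atp5b and Sdhb, and up to 4 called genes per other list. Ndufs4 and Atp5g2, and Ndufc2 and Atp5mpl for VD3 by TNFa, and the called genes of other lists between VD3+TNFa and TNFa, lie outside this rule and were named after their values were seen. For TNFa averaged the rule was followed only in part. Of its highest members Ndufa4 alone is named, and the called genes of other lists are named in part. The members, the gene lists and the model were chosen with earlier results of these data known. Alternatives covered the signal floor, normalization, the Present filter, averaging of probe sets, the deposited matrix, the variance trend, arrays left out and scan day, which is recorded for the VDRwt arrays only, where both arrays with TNFa share another day than both without.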

Additional observations from a re-analysis of the deposited data

Results flagged for a closer look

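The difference between the TNFa responses with and without VD3 was called for 1 member, cytochrome c (Cycs), at 1.54 ± 0.30 on the log2 scale (limma, adjusted p = 0.0420). That is 1.33% of members, no more than the 1.77% of all probe sets called in either direction. The call held in 2 of 16 alternatives. The change was 0.71 for VD3+TNFa against VD3, and -0.84 for TNFa against untreated. The other Cycs probe sets gave 0.28 and 0.66 with VD3, against -0.62 and -0.06 without it. On the probe set used, the difference between these changes was 1.30 in VDRmut and 1.78 in VDRwt cells. Both genotypes thus showed its direction, each with 1 array per condition.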

How the results depend on the processing

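No pairing by replicate number could be made, since each condition had 1 array and the labels give no replicate numbers; the genotype term already compares treatments within each genotype. Neither directions of called members nor the sign of the median with TNFa alone reversed under any alternative run, but calls were few and shifted. For TNFa without VD3 (10 members called), the count was 5 with a floor of 50 or without the variance trend, 4 without both low-actin VDRmut arrays, 1 with scan day as a block, and 0 to 9 with an array left out. Of 16 alternatives, Ndufv3 and Atp5g1 stayed called in 14, Atp5j in 11, Ndufa12 in 10, Ndufa5 in 9, Ndufb6 in 7, Ndufc1 in 6, Ndufb9 in 5, Ndufs8 in 3 and Cycs in 2. Over all probe sets the 1418 calls became 512 with the floor, 341 with scan day as a block and 365 to 1089 with an array left out.

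For TNFa with VD3 (1 called), the count was 0 with the floor, without the Present filter, with the mean of a gene's probe sets, without the trend, without the low-actin arrays or with scan day as a block, and 0 to 5 with an array left out. Its median of -0.10 became -0.168 with quantile normalization, -0.188 with scan day as a block, -0.160 in VDRmut alone and -0.201 to -0.0421 with an array left out. All 103 calls became 1 with the floor or with scan day as a block, 6 without the filter or with probe sets averaged, 8 without the trend, 168 without the low-actin arrays and 0 to 692 with an array left out. For TNFa averaged (14 called), the count was 5 with the floor or without the trend, 9 without the filter, 0 with scan day as a block or 1 TNFa effect, and 1 to 14 with an array left out; the median was -0.163 in VDRwt alone, and all 1672 calls became 525 with the floor, 956 without the trend, 32 with scan day as a block and 416 to 1867 with an array left out.

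For VD3 with TNFa (4 called), the count was 1 with the floor, without the filter or with scan day as a block, 2 with probe sets averaged, 0 without the trend or the low-actin arrays, and 0 to 7 with an array left out. Its median was 0.179 without the low-actin arrays and -0.0082 to 0.226 with an array left out, the negative value being that without VDRwt VD3+TNFa. All 894 calls became 96 with the floor, 418 without the trend, 578 without the filter and 104 to 1176 with an array left out. For VD3 by TNFa (1 called), the count was 0 with the floor, quantile normalization, no filter, averaged probe sets, no trend, no low-actin arrays or scan day as a block, and 0 to 3 with an array left out. Its median was 0.425 in VDRmut alone and 0.201 to 0.464 with an array left out, and all 227 calls became 10 with the floor, 37 without the trend, 56 without the filter, 144 without the low-actin arrays, 136 with scan day as a block and 7 to 470 with an array left out. For VD3 without TNFa, VD3 by genotype and genotype no member was called by limma under any alternative run. The median was -0.434 to -0.0832 for VD3 without TNFa with an array left out. For VD3 by genotype it was -0.0083 without the low-actin arrays, -0.353 without both TNFa arrays of high 18S signal (an alternative chosen after seeing the data) and -0.388 to 0.0331 with an array left out, positive only without VDRmut untreated. For genotype it was 0.0699 to 0.196 with an array left out. Scan day as a block was not run for genotype, since the day is recorded in VDRwt only. In the other comparisons the block marks only the VDRwt arrays with TNFa and does not separate scan day from TNFa. The causes of these shifts were not tested.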
